A study of Rattus norvegicus and Heterocephalus glaber with 6 samples.

Results

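Genes of fatty acid synthesis, triglyceride assembly, lipid storage and lipid release were examined in polyadenylated liver RNA of naked mole rats and rats. The set holds 45 listed symbols of the pathway, chosen with earlier results of these data known. Of these, 2 had a row in each naked mole rat table, of 734 rows, and 40 had a row in each rat table, of 22549 rows. Fasn, Elovl1, Mlxipl, Plin2 and Scd2 were not analysed here under those symbols. The naked mole rat group had 3 libraries and the rat group 3, all from liver after 8 hours in 8% oxygen. No library at normal oxygen was used here, so no effect of oxygen could be measured, and every level below belongs to the hypoxic state. The labels give no strain, sex or age. The labels name separate samples but do not say whether they are separate animals, so a p-value here reflects sample-to-sample spread that may be partly technical. The numbers rat 1, rat 2 and rat 3 name the libraries and carry no order.

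Liver makes fatty acids from acetyl-CoA, which ATP citrate lyase releases from citrate and acetyl-CoA carboxylase turns into malonyl-CoA. The products are elongated and desaturated, activated to acyl-CoA and joined to glycerol phosphate by a chain of acyltransferases, with phosphatidate phosphatases (lipins) before the final step. The triglyceride is stored in droplets, hydrolysed again by lipases or exported in lipoproteins. SREBP-1c, encoded by Srebf1, raises transcription of many of these genes in the fed state, and INSIG proteins hold its precursor back when sterols are plentiful.

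Values are FPKM, fragment counts the authors scaled by transcript length and library size, so levels can be compared between genes per length. Totals were 17543 to 21793 FPKM in the naked mole rat tables and 527133 to 557187 in the rat tables. Absolute depth is unknown. The step between the lowest values put rat 1 at a relative depth of 1.05 over rat 2 and of 0.983 over rat 3. Liver identity could be checked in rat, where 12 of 14 hepatocyte markers reached a mean of 10 FPKM with 3 values and summed to 55977 to 57190 FPKM. In naked mole rat the tables held 1 of the 14, APOH, at 34.7 to 57.9 FPKM.

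The naked mole rat tables held MGLL, with lower values than in rat, and ACSBG1, with higher ones. MGLL, monoglyceride lipase, releases the last fatty acid of a triglyceride. Its FPKM values were 2.44, 1.41 and 4.78 in naked mole rat, against 29.0, 46.8 and 33.0 in rat. The lowest rat library lay above the highest naked mole rat library. The share of all tested symbols whose groups lie apart was not counted. After median ratio scaling of the libraries, MGLL averaged 3.03 ± 1.77 in naked mole rat and 33.4 ± 5.89 in rat (SD, n = 3 each). It was 8.99-fold lower in naked mole rat, with a difference of -3.17 on the log2(scaled FPKM + 1) scale (SE 0.30, 95% interval -3.88 to -2.46, limma adjusted p = 2.77e-05). That scale understates the differences of low genes.

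ACSBG1 encodes a very long-chain acyl-CoA synthetase of the bubblegum family, known from brain and steroid-producing tissue. Its values were 9.06, 7.22 and 7.84 FPKM in naked mole rat, against 0.359, 0.355 and 0.627 FPKM in rat. Each rat library was below 1 FPKM. ACSBG1 was 6.75-fold higher in naked mole rat on the log2(scaled FPKM + 1) scale, a difference of 2.76 (SE 0.11, 95% interval 2.50 to 3.01, limma adjusted p = 1.59e-07). It passed the filter for testing, a scaled FPKM of at least 1 in 3 libraries, through naked mole rat alone, since each rat library was below 1 after scaling too. A symbol that passes in this way had to differ, so the call adds nothing to the values. The size of this difference rests on the scale, since a pseudocount of 0.1 gave 4.10 and a common total over shared symbols gave 5.35.

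The call rule was an adjusted p under 0.05 with a log2 difference of at least 1. Of the 288 symbols tested, 32.6% passed it in the direction of naked mole rat and 41% in that of rat, 73.6% in all, so a call was the usual outcome for a shared symbol. The median log2 difference over all tested symbols was -0.40. The rows themselves differ in reach. In naked mole rat the MGLL row covered 94683 bp, on scaffold175323 from 218625 to 313307, and in rat 100400 bp, on chromosome 4 from 122822493 to 122922892. Among the 47 tested symbols with spans as alike as these (0.5 to 2 times), 34% were called higher and 23.4% lower in naked mole rat. The whole MGLL row lies within the row of ABTB1, which read 2.85, 2.78 and 3.97 FPKM. The naked mole rat ACSBG1 row covered 3267721 bp, on scaffold430 from 26455 to 3294175, which is 58.1 times the 56255 bp of the rat row, on chromosome 8 from 58156231 to 58212485. It shares 3233116 bp with the row of PSMA4, a proteasome subunit, at 8.60, 7.09 and 8.70 FPKM. The part of other genes' reads in both rows was not tested. Species, genome assembly and annotation cannot be told apart.

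**Figure D1:**
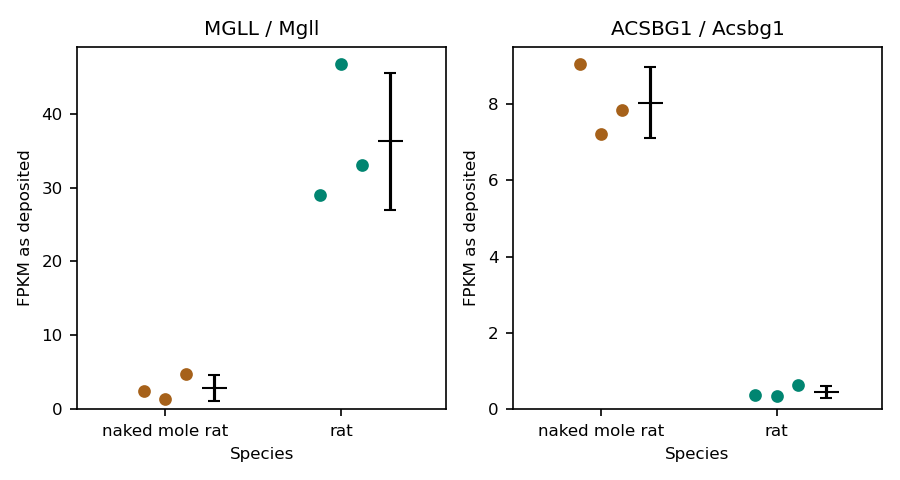
FPKM as deposited for MGLL (left) and ACSBG1 (right) in naked mole rat and rat, 1 point per library, with the mean and SD of 3 libraries as bars. MGLL lies between 1.41 and 4.78 in naked mole rat and between 29.0 and 46.8 in rat, and ACSBG1 between 7.22 and 9.06 in naked mole rat and between 0.355 and 0.627 in rat.

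The remaining results come from the 3 rat libraries, a single group, so they are levels and spreads with no test. Of the 40 genes with a rat row, 36 reached a mean of 1 FPKM, against 44.3% of all rat rows. The mean was at least 10 FPKM for 25 genes, against 17.3% of all rows, and at least 100 FPKM for 8, against 2.94%. The 4 genes below 1 FPKM were Acsbg1 at a mean of 0.447, Pnpla3 at 0.192, Mogat2 at 0.0315 and Elovl3, listed at 0 in each library. Just inside and outside 10 FPKM lay Lpin2 at 12.4 and Lpin3 at 9.74.

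Among the genes that control lipogenesis, Thrsp was the most abundant of the whole set. Thrsp (Spot 14) is a small nuclear protein that responds to thyroid hormone and carbohydrate and promotes lipogenesis. It stood at 918, 681 and 741 FPKM in rat 1, rat 2 and rat 3, a mean of 780 ± 123 (SD, n = 3), above 99.6% of all rat rows. Srebf1 was at 31.8, 60.6 and 73.3 FPKM, a mean of 55.2 ± 21.3. Rat 1 was the highest library for Thrsp and the lowest for Srebf1, and rat 3 lay above rat 2 for both. The Srebf1 row, on chromosome 10 from 46461684 to 46483646, shares 583 bp with Rai1, which averaged 1.77 FPKM.

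The enzymes that supply and carboxylate acetyl-CoA were at moderate levels. Acly, ATP citrate lyase, had 110 FPKM in rat 1, 86.6 FPKM in rat 2 and 90.8 FPKM in rat 3. Acaca, the cytosolic acetyl-CoA carboxylase of fatty acid synthesis, was at 26.6, 19.5 and 22.5. Acss2, which makes acetyl-CoA from acetate, was at 16.0, 19.1 and 18.0. Acly and Acaca shared the order of Thrsp, with rat 1 highest and rat 2 lowest, and Acss2 had the opposite ends. Acacb, whose malonyl-CoA at the mitochondrial surface restrains fatty acid oxidation, was far lower at 2.02, 3.50 and 4.20 FPKM. The ratio of Acaca to Acacb was 13.2 in rat 1, 5.56 in rat 2 and 5.37 in rat 3. Me1, the malic enzyme that supplies NADPH, was at 5.33, 11.3 and 8.01 FPKM. Rat 1 was thus the highest library for Acly and Acaca and the lowest for Acacb and Me1.

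Of the 8 desaturase and elongase genes at 1 FPKM or more, 4 reached a ratio of at least 2 between the highest and the lowest library, against 6.01% of all rat rows at the same minimum. Together their 9 rows summed to 238, 525 and 459 FPKM. Scd1, a stearoyl-CoA desaturase that makes monounsaturated fatty acids, stood at 90.7, 200 and 124 FPKM, on chromosome 1 from 249458860 to 249471460. The row named Scd was at 1.80, 2.15 and 2.22 FPKM, so that Scd1 was 50.5 to 92.8 times as high. Gene symbols have since changed: in current RefSeq names the deposited Scd1 is Scd and the deposited Scd is Scd2. These are similar copies that can share reads, so their values are uncertain.

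Fads1 and Fads2, the delta-5 and delta-6 desaturases that make polyunsaturated fatty acids, lie near each other on chromosome 1, from 212670792 to 212685718 and from 212512691 to 212542622. Fads1 had 14.0 FPKM in rat 1, 19.9 FPKM in rat 2 and 45.4 FPKM in rat 3. Fads2 was at 63.4, 124 and 174 FPKM. Both were highest in rat 3 and lowest in rat 1, as Srebf1 was. Fads2 exceeded Fads1 by 3.83 to 6.24 times. Fads3, a family member with another substrate range, was low at 1.26, 1.07 and 1.47 FPKM.

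Elovl5, which elongates polyunsaturated fatty acids, was at 58.9, 170 and 100.4 FPKM in rat 1, rat 2 and rat 3, on chromosome 8 from 82922551 to 82948348. Its order was that of Scd1, with rat 2 highest and rat 1 lowest. Elovl2, which acts on longer polyunsaturated chains, was at 5.40, 6.21 and 7.62 FPKM. Elovl6, which elongates palmitate to stearate, was at 2.17, 2.49 and 3.69. Elovl2 and Elovl6 followed the order of Fads1 and Fads2.

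Acyl-CoA synthetases activate fatty acids before any further use. Acsl1, the main hepatic isoform, had 268, 512 and 301 FPKM, below Thrsp alone in mean (360 ± 132, SD, n = 3). Acsl5 was at 75.3, 109 and 111 FPKM. Acsl4, which prefers arachidonate, had the smallest ratio between libraries of the 36 genes at 1 FPKM or more, 1.01, at 22.2, 22.1 and 22.0. Acsl3, found on lipid droplets, was at 1.48, 1.92 and 3.46. Acsl1 had the order of Scd1 and Elovl5, whereas Acsl3 and Acsl5 had that of Fads1 and Fads2.

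Triglyceride assembly was represented at every step. Gpam, the mitochondrial glycerol-3-phosphate acyltransferase that starts the pathway, was at 42.4, 49.9 and 17.4 FPKM, on chromosome 1 from 261370264 to 261431434. It was the one gene of the 9 with a ratio of at least 2 between libraries that was lowest in rat 3. Of the acyltransferases of the second step, Agpat2 was at 48.1, 53.2 and 47.2 FPKM, Agpat3 averaged 8.33 ± 0.591 and Agpat1 3.08 ± 0.232 (SD, n = 3). The Agpat2 row touches Egfl7 over 47 bp and the Agpat1 row Egfl8 over 67 bp. Lpin1, a lipin that also acts as a nuclear coactivator, was at 84.9, 52.3 and 66.9 FPKM. Lpin2 was at 9.20, 15.2 and 12.9 and averaged 12.4 ± 3.03. Lpin1 and Lpin2 thus had reversed orders, and their ratio ran from 3.44 in rat 2 to 9.22 in rat 1. The Lpin2 row shares 26268 bp with Emilin2, which averaged 0.469 FPKM. Lpin3 averaged 9.74 ± 0.620. Of the enzymes of the final step, Dgat2 was at 141, 167 and 139 FPKM and Dgat1 at 17.8, 21.0 and 19.0. Their ratio held between 7.36 and 7.95 in the 3 libraries. Mogat2, the monoacylglycerol acyltransferase of intestine, was at 0.0634, 0 and 0.0312.

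Lipases covered a wide range of levels. Lipc, hepatic lipase, which is secreted and acts on lipoproteins, stood at 177, 226 and 215 FPKM. Pnpla2, the adipose triglyceride lipase of the first hydrolysis step, was at 47.1, 37.2 and 39.9. Lipe, hormone-sensitive lipase, was at 3.92, 4.11 and 4.31. Mgll, of the last step, exceeded Lipe in each library. Pnpla3, a droplet protein known for a human variant linked to fatty liver, was at 0.0473, 0.297 and 0.233 FPKM, so its ratio between libraries of 6.29 is one between very low values.

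Droplet and export genes had ratios of 1.10 to 1.25 between the highest and the lowest library, beside a median of 1.24 over all rat rows at 1 FPKM or more. Cideb, a droplet protein of hepatocytes that serves lipoprotein maturation, was at 127, 115 and 121 FPKM. Its row shares 18 bp with RGD1308396, at a mean of 3.90 FPKM. Cidec, which fuses droplets, was at 62.4, 73.1 and 62.2, and Cidea, known best from brown fat, at 15.1, 14.0 and 12.8. Mttp, which loads lipid onto apolipoprotein B, was at 47.8, 53.8 and 59.8 FPKM. The 4 rows summed to 253, 256 and 256 FPKM.

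**Figure D2:**
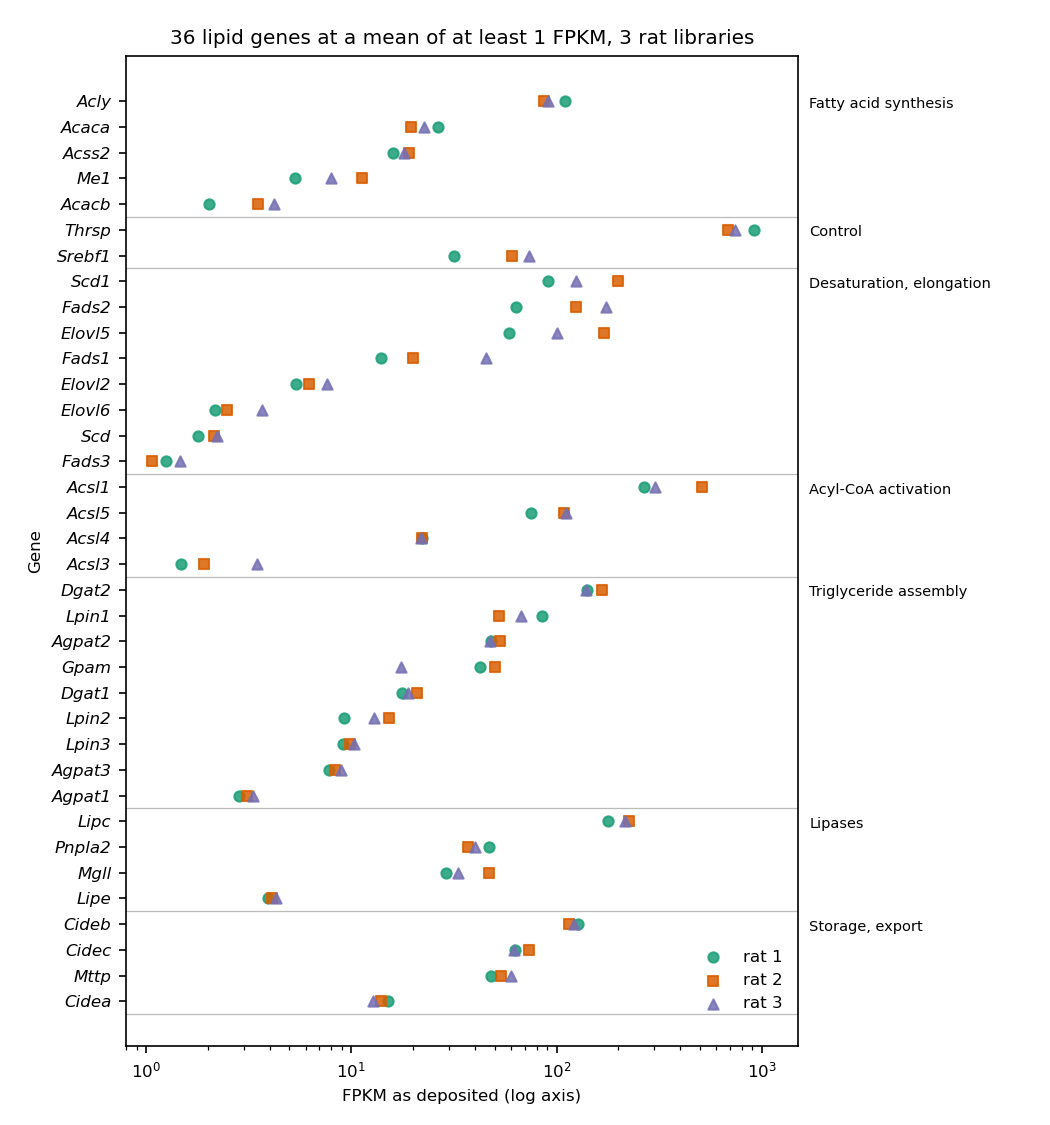
FPKM as deposited (log axis) of the 36 genes with a mean of at least 1 FPKM in rat, grouped by role, with 1 symbol per library. Thrsp lies highest at 681 to 918, and the libraries lie widest apart for Fads1, at 14.0 to 45.4.

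Spread between the rat libraries was compared with that of all rows. The highest library was at least 2 times the lowest for 9 of the 36 genes, Fads1, Elovl5, Gpam, Fads2, Acsl3, Srebf1, Scd1, Me1 and Acacb, against 6.01% of the 9994 rat rows at the same minimum. At a mean of at least 10 FPKM the count was 6 of 25, against 3.92% of rows. The ratio was largest for Fads1 (3.25), then Elovl5 (2.88), Gpam (2.87) and Fads2 (2.74). Acacb at 2.08 was just inside the limit and Acsl1 at 1.91 just outside it. The median SD on log2(FPKM + 1) was 0.20 over the 36 genes, against 0.14 over all rows. Scaling the libraries by the median ratio over rat rows left 7 genes at a ratio of 2, with Me1 at 1.94 and Acacb at 1.97, against 5.88% of rows. With 2 libraries left the count was lower for members and for all rows. Without rat 1 it was 2 genes (Fads1 and Gpam), against 3.23% of rows. Without rat 2 it was 6 (Fads2, Srebf1, Fads1, Acacb, Acsl3 and Gpam), against 2.95%, and without rat 3 it was 3 (Scd1, Elovl5 and Me1), against 3.01%.

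**Figure D3:**
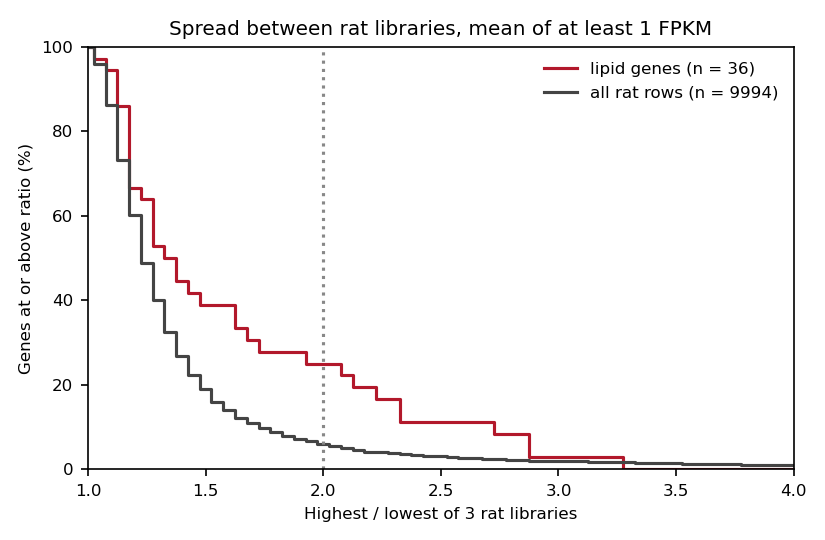
Percentage of genes whose highest rat library is at least the ratio on the x axis times the lowest, for 36 lipid genes and 9994 rat rows at a mean of at least 1 FPKM. The dotted line marks a ratio of 2, which 9 of the 36 genes reached, against 6.01% of all rows.

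The order of the libraries fell into a few forms. Of the 36 genes, 15 were highest in rat 3, 13 in rat 2 and 8 in rat 1, and over all rows at the same minimum the shares were 33.5%, 49% and 17.5%. Of the 25 genes at a mean of at least 10 FPKM, 5 were highest in rat 3, 12 in rat 2 and 8 in rat 1, against 33.8%, 49.3% and 16.9% of rows at that minimum, so 10 of the 15 highest in rat 3 lay below 10 FPKM. Rat 1 was the lowest library for 23 of the 36, against 48.5% of rows, rat 2 for 7, against 22.6%, and rat 3 for 6, against 28.9%. After median ratio scaling rat 1 was lowest for 19, against 31.8%, rat 2 for 12, against 33.5%, and rat 3 for 5, against 34.7%, and the counts of highest libraries were again 8, 13 and 15 for rat 1, rat 2 and rat 3, against 31.5%, 36.4% and 32%. In 14 genes rat 3 was highest, then rat 2, then rat 1 (Fads2, Acsl5, Srebf1, Mttp, Fads1, Lpin3, Agpat3, Elovl2, Lipe, Acacb, Agpat1, Elovl6, Acsl3 and Scd). In 9, rat 2 was highest, then rat 3, then rat 1 (Acsl1, Lipc, Scd1, Elovl5, Mgll, Dgat1, Acss2, Lpin2 and Me1). Rat 1 was highest, then rat 3, then rat 2, in 6 (Thrsp, Cideb, Acly, Lpin1, Pnpla2 and Acaca). Dgat2, Cidec, Agpat2 and Gpam ran rat 2, rat 1, rat 3, Acsl4 and Cidea ran rat 1, rat 2, rat 3, and Fads3 ran rat 3, rat 1, rat 2. Below 1 FPKM, Acsbg1 was highest in rat 3, Pnpla3 in rat 2 and Mogat2 in rat 1. Scaling changed the order of Acsl4, Lpin3, Agpat3, Lipe and Agpat1, whose libraries lay close together.

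**Figure D4:**
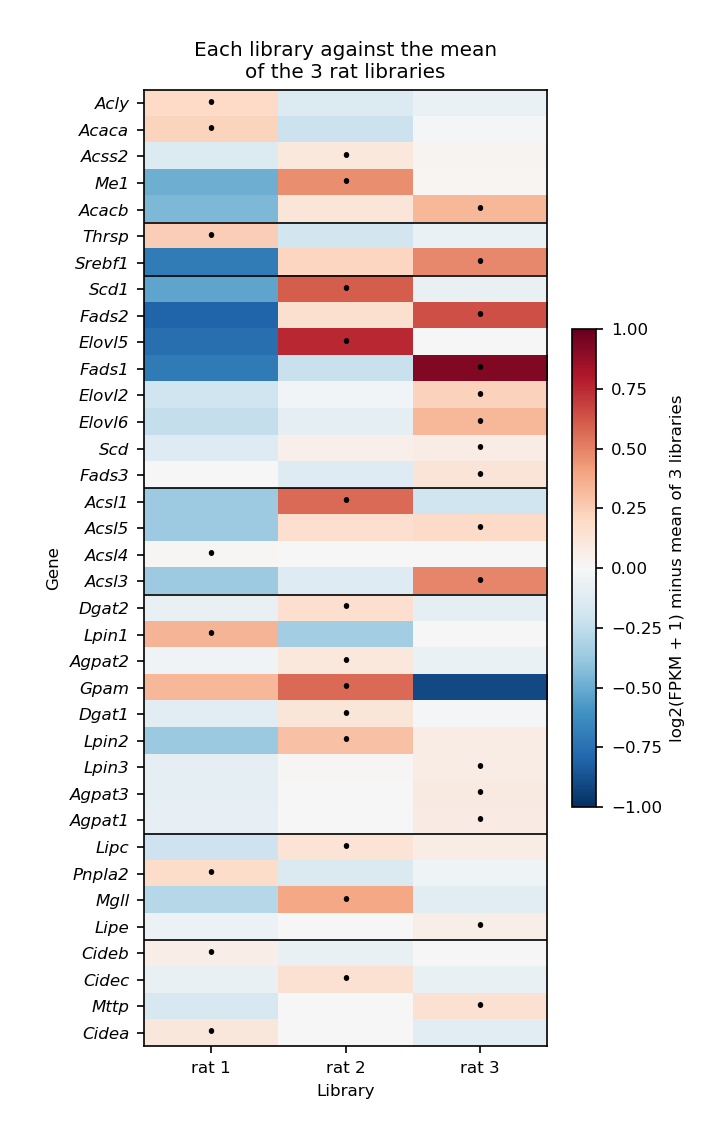
Deviation of each rat library from the mean of the 3 on log2(FPKM + 1), in colour, for the 36 genes by role, with a dot on the highest library. Rat 1 is low for most desaturases and elongases, Fads1, Fads2 and Srebf1 are highest in rat 3, Scd1, Elovl5 and Acsl1 are highest in rat 2, and Gpam is low in rat 3.

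Promoters are shown for the 6 genes with a mean of at least 10 FPKM and a ratio of at least 2 between the highest and the lowest library. Sequences are the 250 bases before each start in RefSeq, build GRCr8, read 5′ to 3′ on the strand of the gene. Capitals mark matches on either strand to the E-box CACGTG, the CCAAT box CCAAT and the sterol regulatory element TCACNCCAC. They lie at chr1:216252442-216252691, plus strand (Fads1), chr1:216172034-216172283, minus strand (Fads2), chr10:45529165-45529414, minus strand and chr10:45519011-45519260, minus strand (both starts of Srebf1), chr1:253231732-253231981, minus strand (Scd1), chr8:87670914-87671163, plus strand (Elovl5) and chr1:264175912-264176161, minus strand (Gpam).
Fads1: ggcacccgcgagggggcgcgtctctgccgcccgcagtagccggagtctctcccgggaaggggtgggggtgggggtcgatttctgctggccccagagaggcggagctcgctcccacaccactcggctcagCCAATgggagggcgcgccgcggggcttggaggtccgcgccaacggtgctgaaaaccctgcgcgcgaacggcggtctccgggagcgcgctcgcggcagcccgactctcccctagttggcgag
Fads2: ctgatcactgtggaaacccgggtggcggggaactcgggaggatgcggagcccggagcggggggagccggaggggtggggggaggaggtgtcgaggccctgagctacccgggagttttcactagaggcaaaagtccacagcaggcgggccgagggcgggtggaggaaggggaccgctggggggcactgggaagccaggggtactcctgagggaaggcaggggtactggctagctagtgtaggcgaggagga
Srebf1, upstream start: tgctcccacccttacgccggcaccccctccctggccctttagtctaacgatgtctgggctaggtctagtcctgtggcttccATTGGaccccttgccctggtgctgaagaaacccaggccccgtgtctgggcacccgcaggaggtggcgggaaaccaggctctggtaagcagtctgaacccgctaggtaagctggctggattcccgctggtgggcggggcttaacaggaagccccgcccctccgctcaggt
Srebf1, downstream start: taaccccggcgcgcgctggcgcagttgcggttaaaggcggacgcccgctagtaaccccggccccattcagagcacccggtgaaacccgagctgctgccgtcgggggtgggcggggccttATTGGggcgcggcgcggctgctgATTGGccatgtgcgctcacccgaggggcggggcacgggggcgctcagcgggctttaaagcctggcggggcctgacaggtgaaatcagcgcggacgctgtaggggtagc
Scd1: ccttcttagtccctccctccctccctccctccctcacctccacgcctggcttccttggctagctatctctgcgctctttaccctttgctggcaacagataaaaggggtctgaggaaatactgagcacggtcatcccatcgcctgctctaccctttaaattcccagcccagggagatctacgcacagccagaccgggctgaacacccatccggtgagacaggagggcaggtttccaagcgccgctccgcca
Elovl5: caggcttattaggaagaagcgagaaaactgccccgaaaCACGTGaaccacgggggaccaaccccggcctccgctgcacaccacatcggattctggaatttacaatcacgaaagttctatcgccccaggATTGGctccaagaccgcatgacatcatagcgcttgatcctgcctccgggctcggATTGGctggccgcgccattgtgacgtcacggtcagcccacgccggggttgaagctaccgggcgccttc
Gpam: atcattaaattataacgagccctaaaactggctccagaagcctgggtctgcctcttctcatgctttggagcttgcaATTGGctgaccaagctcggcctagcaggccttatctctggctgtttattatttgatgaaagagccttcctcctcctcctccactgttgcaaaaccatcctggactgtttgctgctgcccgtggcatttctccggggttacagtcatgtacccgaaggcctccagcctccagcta

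Elovl5 held 1 E-box, which begins at position -212 from its start, and 2 CCAAT boxes. The upstream Srebf1 start had 1 CCAAT box and the downstream start 2. Fads1 and Gpam had 1 each, whereas Fads2 and Scd1 had no match in this window. RefSeq promoters were matched for 33 of the 40 genes, with 35 starts. A CCAAT box was present in 60% of these, against 34.0% of all 33469 promoters, and an E-box in 5.71% (Elovl5 and Mgll), against 5.59%. The exact form TCACNCCAC of the sterol regulatory element was present in 0 of the 35, against 0.974%. With so rare a form, 0 of 35 shows no lack of it, and other forms of the element were not searched. These letters show neither binding nor a cause of the levels.

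Other genes of lipid handling, from lists fixed alongside the set, were read in the same rat libraries. Of 51 further genes of fatty acid and triglyceride metabolism, 37 had a row and 26 reached 1 FPKM, against 44.3% of all rat rows. Of these, 3 reached a ratio of 2, against 6.01% of rows. The most abundant was Fabp1, the liver fatty acid binding protein, at 3895, 5358 and 6173 FPKM in rat 1, rat 2 and rat 3. Hsd17b11, a droplet-associated dehydrogenase, averaged 392 ± 59.0 FPKM (SD, n = 3), the fatty acid transporters Slc27a2 and Slc27a5 388 ± 54.7 and 279 ± 58.5, and G0s2, an inhibitor of Pnpla2, 347 ± 95.3. The 3 genes at a ratio of 2 were Cd36, a fatty acid receptor, at 1.77, 1.95 and 6.52 FPKM, Aacs, acetoacetyl-CoA synthetase, at 0.745, 0.625 and 1.87, and Ptpla, a dehydratase of fatty acid elongation, at 1.04, 2.37 and 1.21. Cd36 and Aacs were highest in rat 3, like Fads1 and Fads2, and Ptpla in rat 2, like Elovl5.

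Of 21 genes that control lipogenesis, all had a row and reached 1 FPKM, against 44.3% of all rat rows, and 1 reached a ratio of 2, against 6.01%. That gene was Insig1, a sterol-regulated retention factor of SREBP proteins, with 45.8, 44.8 and 108 FPKM in the libraries of rat 1, rat 2 and rat 3. Srebf2, the sterol-directed relative of Srebf1, was at 5.48, 6.17 and 8.57, and Mid1ip1, a partner of Thrsp, at 29.9, 49.0 and 37.6. Insig1 and Srebf2 were highest in rat 3, as Srebf1, Fads1 and Fads2 were, and Mid1ip1 was highest in rat 2. Ppara, the nuclear receptor of fatty acid oxidation, was at 34.1, 44.6 and 27.6 FPKM, and Trib3 at 3.57, 1.91 and 2.65. Rxra averaged 133 ± 10.6, Nr1h3, the liver X receptor alpha, 65.9 ± 8.69, Insig2 51.2 ± 7.04 and Usf2 40.2 ± 3.39.

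Of 11 genes that respond to feeding or fasting, all at 1 FPKM or more, 5 reached a ratio of 2, against 6.01% of rows. Igfbp1, which insulin represses, was at 97.5, 22.4 and 68.4 FPKM in rat 1, rat 2 and rat 3. Irs2, an insulin receptor substrate, was at 4.89, 2.15 and 3.78. For the gluconeogenic enzymes, G6pc was at 540, 249 and 437 FPKM and Pck1 at 817, 451 and 1139. Rat 2, the highest library for Scd1, Elovl5, Acsl1, Me1 and Mgll, was the lowest for Igfbp1, Irs2, G6pc and Pck1. The part of feeding in these differences was not tested. Cpt1a, of mitochondrial fatty acid import, averaged 199 ± 38.0 FPKM and Pklr, liver pyruvate kinase, 156 ± 13.7.

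Markers of other cell types were read beside these orders, since in bulk tissue fewer cells of a type and less RNA per cell cannot be told apart. Of 10 adipocyte markers 9 had a row, and Adipoq, Lep, Retn, Adrb3 and Ucp1 were listed at 0 in each rat library. The 9 summed to 29.8, 29.1 and 26.3 FPKM in rat 1, rat 2 and rat 3, most of it Cfd at a mean of 22.3. Of 10 macrophage markers 9 had a row, with Marco listed at 0. The other 8 were each highest in rat 3, against 33.5% of all rat rows at a mean of at least 1 FPKM. Their sum was 254, 268 and 365 FPKM. The 5 cholangiocyte markers, Epcam and Krt19 and, below 1 FPKM, Sox9, Krt7 and Cftr, were each highest in rat 3 too. Fads1, Fads2, Srebf1, Acsl3, Insig1 and Cd36 were highest in the same library. The part of macrophage or cholangiocyte RNA in their levels was not tested. Of 7 erythroid markers 2 had a row, Hbb and Slc4a1, which summed to 55.0, 359 and 349 FPKM. Rat 1 was the low library for these and for 23 of the 36 lipid genes, against 48.5% of all rat rows at a mean of at least 1 FPKM. After median ratio scaling it was lowest for 19 of the 36, against 31.8% of rows. The part of blood was not tested. Sums for 5 sinusoidal endothelial markers were 62.4, 56.7 and 55.8 FPKM, for 8 stellate or fibroblast markers 40.4, 28.2 and 39.3, and for 5 cholangiocyte markers 11.7, 12.9 and 16.7.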

How the data were processed

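Polyadenylated liver RNA was sequenced in 3 naked mole rat and 3 rat libraries, per the labels. The authors deposited FPKM values per gene, per the file headers, in tables with the columns of a Cufflinks gene table. The submitters' processing notes name TopHat2 2.0.9, Bowtie2 2.1.0, Picard 1.137 and Cufflinks 2.1.1, with no role or order. Genome builds are not given, and coordinates are those of the tables with the start moved to count from 1. Rows of status HIDATA (Alb in rat 1 and rat 2) were treated as missing.

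Genes were matched by symbol without regard to case. The members and lists were chosen with earlier results of these data known. Every gene of the set was named. Of the other lists, the 5 highest by mean FPKM and the 5 with the largest ratio between rat libraries at a mean of at least 1 FPKM were named, except for a few left out of this text. Between species, rows of the same symbol were summed (388 shared symbols) and each library was divided by its median ratio to the geometric mean of all libraries, taken over symbols above 0 throughout. Then symbols reaching a scaled FPKM of 1 in 3 or more libraries were tested. The test was limma's (version 3.58.1, R 4.3.3), fitted to log2(scaled FPKM + 1) with a trend on intensity. Its p-values were adjusted by Benjamini-Hochberg over all symbols tested. The fit was tested on simulated data with the same spread between libraries for every symbol. That spread was smaller than the spread of MGLL in naked mole rat, so the simulation does not vouch for the p-value of MGLL. Alternatives were scaling, pseudocount, filter, rows per symbol, span, trend, call rule, a replicate block and leaving out each library. Figures were drawn with matplotlib 3.10.9.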

Additional observations from a re-analysis of the deposited data

How the results depend on the processing

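MGLL stayed lower and ACSBG1 higher in naked mole rat, both called, under each alternative in which they were tested. ACSBG1 passed the main filter through naked mole rat alone, so its calls add nothing to its values. The log2 difference ran from -3.55 to -2.61 for MGLL and from 2.64 to 5.35 for ACSBG1. With symbols of comparable span alone in the fit, 1 of the set was tested and called, MGLL, because ACSBG1 is not among them. Leaving out each library in turn gave -3.42 to -2.87 for MGLL and 2.64 to 2.87 for ACSBG1, and 2 genes were called each time. Where a species kept 2 libraries, the filter asked for 2. Counts over all symbols moved with the scale, from 94 higher and 118 lower in naked mole rat to 169 and 108 with a common total, of 358 symbols tested, or 111 and 101 with quantile normalization.

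Same-numbered libraries did not deviate together (r = -0.036, -0.086 and -0.043 for numbers 1, 2 and 3). With 3 libraries per species this cannot exclude a pairing, which the labels do not state. With the replicate block MGLL was again called, with a limma adjusted p of 8.71e-05.

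In rat, 36 genes reached 1 FPKM in every setting, and 24 to 26 reached 10 FPKM. Judged by the lowest library, 5 reached 100 FPKM in place of 8. Leaving out each rat library in turn gave 36, 25 to 26 and 7 to 9 genes at 1, 10 and 100 FPKM. At a mean of at least 10 FPKM, 5 genes were highest in rat 3, against 33.8% of rows. Leaving out each library gave 2 to 6 genes at a ratio of 2 and a median SD of 0.14 to 0.18. The alternatives for the count at a ratio of 2 were added after seeing the data. Without counts, depth sets an unknown limit on the low genes, Pnpla3, Mogat2 and Acsbg1 above all.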
